A study of Mus musculus with 7 samples.

Results

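The members described here are 10 genes of the complement system: the C1q chains C1qa, C1qb and C1qc, the components C2, C3, C4b and Cfb, the inhibitor Serping1, and the receptors C3ar1 and C5ar1. They were taken by name from the gene list of the count tables, and all 10 were found among 32285 genes. Complement is a chain of plasma proteins that marks cells and debris. C1q starts the classical pathway by binding antibodies or dying cells, C2 and C4 form the enzyme that cleaves C3, and factor B (Cfb) forms another C3-cleaving enzyme that amplifies the reaction. Cleavage of C3 and C5 releases the small peptides C3a and C5a, which act through C3ar1 and C5ar1 on myeloid cells. In the brain, C1q and C3 are best known for tagging synapses and debris for microglia, while the liver makes most of the plasma components.

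The cells came from whole brain tumours that the mouse glioma line NSCG had formed in C57BL/6 mice aged 7 to 10 weeks, a line with EGFRvIII, an mCherry tag and the stated genotype Arf/Ink4a-/-. Each group's material combined tumours from 2 or more mice, which were dissociated with enzymes at about day 14 and then profiled by droplet single-cell RNA sequencing, so that 1 library is 1 pool and the spread between mice was not measured. Untreated mice (UT) gave 1 library. Mice given IgG2b isotype control at 10 mg/kg (IgG) gave 2 libraries, and mice given the anti-VEGF antibody B20 at 5 mg/kg with anti-PD-L1 at 10 mg/kg (BP) also gave 2, both dosed every 3 days from day 6 to 7. BPI (1 library) added 10 mg/kg of IPI-145, which blocks the delta and gamma forms of PI3K, by mouth each day. CD40 (1 library) received 2 injections of 100 µg of a CD40-activating antibody, and the labels do not settle whether a dendritic cell vaccine was given as well. An IgG control for BPI also received the gavage diluent per the labels, and which IgG library this was is not stated. The genotype is given as WT in every group. The study asks how tumour and immune cells adapt to immunotherapies. The labels say that mice were pooled but not how the replicates of a group were separated, so p-values measure only the spread between these libraries.

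After filters 48588 cells were kept, from libraries of 68997476 to 186793886 UMIs, a UMI being 1 counted RNA molecule. At most 27 cell barcodes were shared by any pair of libraries. Cells were clustered without the complement genes and classes were named from marker lists, so the class names do not rest on the 10 members. Tumour-like cells made up 18.5% to 81.7% of a library, monocyte/macrophage-like cells 0.921% to 18.8%, microglia-like cells 0.949% to 10.99% and endothelial-like cells 0.105% to 1.85%. All 14 monocyte/macrophage markers were detected in the first myeloid class and all 12 microglia markers in the second, in every library. Since the classes were named from these lists, this does not test the names. The barcodes of UT come from a different list from those of the remaining 6 libraries, and 59.0% of its cells stayed unnamed. It is therefore given as values without a test, apart from an alternative fit that pooled it with IgG. In BP replicate 1, 91.7% of the monocyte/macrophage-like cells sat in a cluster (27) that the other libraries hardly entered, 96.6% of its tumour-like cells sat in cluster 11, and all of its microglia-like cells sat in 1 of the 2 microglia clusters (19). The library names of IgG replicate 1, BP replicate 2 and BPI are consecutive, as are those of CD40 and IgG replicate 2, and levels are compared within these sets where stated. Tumour-like cells also followed the sets, with clusters 25 and 26 leading in IgG replicate 1 and BP replicate 2, 20 and 1 in IgG replicate 2 and CD40, and 5 in UT.

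Levels are UMIs of a gene per 1000000 UMIs of all cells of a class in a library (CPM). The kit counts 3′ ends, so CPM is a count of molecules and does not grow with gene length. C4b has a near-identical copy, C4a, on the same chromosome, and counting could split reads between them. Few UMIs were counted as C4a, 107 over all cells against 5872 of C4b in BP replicate 1 alone. Whether reads that match both genes were lost was not tested, so C4b values are uncertain to that extent. Intervals given with a level cover counting error only.

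In the GRCm38 annotation of GENCODE, all 10 members lie on the minus strand. The chains C1qb (chr4:136880129-136886187), C1qc (chr4:136889804-136893065) and C1qa (chr4:136895917-136898803) form 1 cluster, with 3616 bases between C1qb and C1qc and 2851 between C1qc and C1qa. C4b (chr17:34728380-34743882), Cfb (chr17:34856374-34862518) and C2 (chr17:34862604-34898265) share the major histocompatibility region, and Cfb and C2 are only 85 bases apart. C3 lies at chr17:57203970-57228136, Serping1 at chr2:84765387-84775444, C3ar1 at chr6:122847138-122856161 and C5ar1 at chr7:16246743-16259540.

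Promoter sequences in RefSeq on GRCm38.p6 were matched for 5 of the 10 members (C1qb, C1qc, C3, C3ar1 and C5ar1). They were searched on both strands for 4 motifs, namely the interferon-stimulated response element, the gamma-activated site (TTCNNNGAA), the core bound by the myeloid factor PU.1 (GAGGAA) and the NF-kappaB site, over 300 bases that end 50 bases after the gene's start. Only the PU.1 core was found, once each in C1qb and C1qc, and no match overlapped another. Of all 32851 promoters of the table, 28.3% hold the PU.1 core, 8.30% the gamma-activated site, 3.44% the interferon element and 0.411% the NF-kappaB site, so a PU.1 core is a common match. No match in C3, C3ar1 or C5ar1 says only that these letters are not in the window. The C1qb and C1qc stretches are shown because both hold a match and these neighbouring genes had a similar pattern. That pattern is over 53 sums of a class in a library (Pearson r of log2 CPM = 0.968), not over single cells. Each is the 250 bases before the start that the RefSeq table uses, 5′ to 3′ on the gene's own strand, C1qb at chr4:136886201-136886450 and C1qc at chr4:136892915-136893164, with the PU.1 core in capitals (its reverse complement in C1qc). That start of C1qc lies inside the GENCODE span given above, so part of the C1qc stretch overlaps that span.
C1qb: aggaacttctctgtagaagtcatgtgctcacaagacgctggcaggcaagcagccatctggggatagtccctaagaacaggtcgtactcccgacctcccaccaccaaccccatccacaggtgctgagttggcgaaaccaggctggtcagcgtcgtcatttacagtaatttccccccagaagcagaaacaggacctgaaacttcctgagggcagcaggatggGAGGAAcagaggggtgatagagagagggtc
C1qc: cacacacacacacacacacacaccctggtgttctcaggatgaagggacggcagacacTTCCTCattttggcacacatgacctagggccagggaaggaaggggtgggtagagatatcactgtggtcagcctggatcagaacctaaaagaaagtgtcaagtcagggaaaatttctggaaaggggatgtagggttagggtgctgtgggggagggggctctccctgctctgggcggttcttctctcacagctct

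The C1q chains were the most myeloid of the components, and microglia-like cells carried more of each chain than monocyte/macrophage-like cells in 7 of 7 libraries. C1qa in microglia-like cells stood at 9036 CPM in UT, 4913 (replicate 1) and 5980 (replicate 2) in IgG, 7049 and 6227 in BP in the same order, 7468 in BPI and 6264 in CD40. Its level in monocyte/macrophage-like cells was 3290 CPM in UT, 1305 and 3584 in IgG, 2883 and 993 in BP, 510 in BPI and 2816 in CD40. The microglial levels lay closer together, whereas the macrophage level was low in IgG replicate 1, BP replicate 2 and BPI and high in the other 4 libraries. The ratio of microglia-like to monocyte/macrophage-like C1qa ran from 1.67 in IgG replicate 2 to 14.6 in BPI, with a median of 2.75. In the monocyte/macrophage cluster that all libraries share (12), BP replicate 1 held 89.2 CPM of C1qa in 150 cells, against 3062 in its own cluster 27. C1qb ran from 2694 to 5490 CPM in microglia-like cells and from 404 to 2238 in monocyte/macrophage-like cells, and C1qc from 1722 to 5096 and from 236 to 2105. The 3 libraries with the low macrophage level are the 3 with consecutive names, which hold an IgG, a BP and the BPI library, and within that set the order was IgG replicate 1, BP replicate 2, BPI for each chain.

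**Figure D1:**
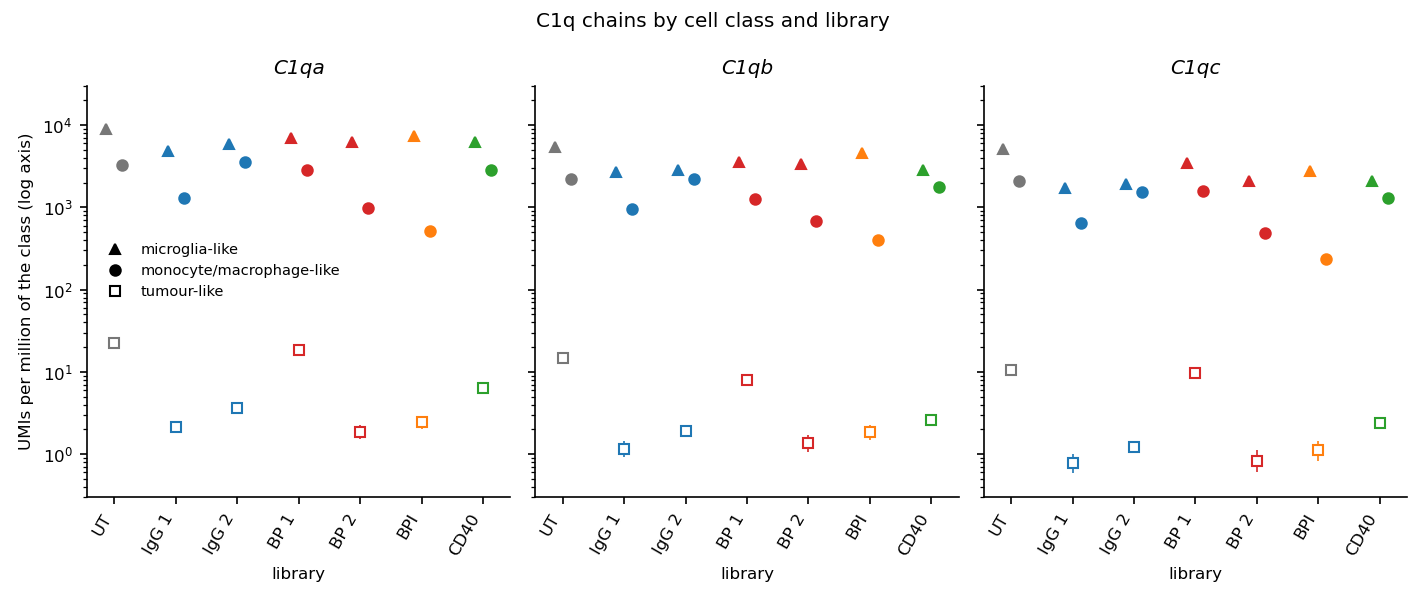
Levels of the C1q chains (CPM, log axis) in the 7 libraries, with IgG and BP replicates numbered and coloured by group; triangles are microglia-like, circles monocyte/macrophage-like and open squares tumour-like cells, and bars, mostly hidden by the points, are exact Poisson intervals. Each triangle lies above its circle, and the circles of IgG 1, BP 2 and BPI are the lowest 3.

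Free RNA is the RNA that leaks into all droplets. In tumour-like cells C1qa stood at 1.85 to 22.2 CPM, and the free RNA estimated from droplets without cells amounted to 119% of the C1qa found there. Unnamed cells held 35.0 to 159 CPM of C1qa, of which estimated free RNA came to 45.6% in UT, 51.4% in BPI and 76.5% to 171% in the other libraries. Among C1q UMIs, C1qa made up 43.2% to 55.9% in the myeloid classes, C1qb 22.3% to 35.1% and C1qc 17.7% to 27.6%. In BP replicate 1 C1qc was 27.4% of C1q UMIs in monocyte/macrophage-like and 27.0% in tumour-like cells, in BPI 20.5% and 20.6%, and in UT 27.6% and 22.0%. These shares were 22.2% and 19.1% in IgG replicate 1 and 21.0% and 17.9% in IgG replicate 2. BP replicate 2 had 22.7% and 20.5%, and CD40 had 22.0% and 20.9%. In microglia-like cells C1qc was 26.0% in UT, 18.5% and 17.7% in IgG, 24.9% and 17.8% in BP, 18.5% in BPI and 18.5% in CD40. T-like cells, which should lack C1q, carried a C1q UMI in 0% to 9.42% of cells after each cell was thinned to 1000 UMIs, with median depths of 2392 to 6089 UMIs, against 97.8% to 100% of microglia-like cells.

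The share of monocyte/macrophage-like cells with a C1q UMI, thinned in the same way, asks whether C1q-bearing cells were more common under BP. It was 41.9% in UT, 24.7% and 58.0% in IgG, 57.0% and 22.9% in BP, 12.3% in BPI and 61.6% in CD40, and without thinning it was 63.3%, 31.2% and 60.9%, 71.9% and 28.2%, 16.6% and 69.8%. The pairs overlapped completely. The mean was 39.9% ± 24.1 (SD, n = 2) in BP and 41.3% ± 23.5 (SD, n = 2) in IgG, a difference of -1.38 percentage points (two-sided exact permutation test, p = 0.667, where 2 against 2 libraries cannot go below 0.333). The sign of this difference rests on which libraries are used and on the thinning, with -18.4 to 15.6 points when a library is left out and 4.05 points without thinning.

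No gene passed an adjusted p of 0.05 in edgeR's quasi-likelihood test in any of the 9 comparisons of BP, BPI or CD40 with IgG in the 3 classes with enough cells, so 0 of 10 members and 0% of 11958 genes in monocyte/macrophage-like, 12326 in microglia-like and 20329 in tumour-like cells were called. On simulated counts with the spread of these libraries, the test found 34.0%, 51.5% and 30.0% of 200 genes changed 4-fold between BP and IgG in the 3 classes, with 2, 18 and 16 false calls. DESeq2 called 107, 42 and 65 genes for BP in the 3 classes, 184, 19 and 6 for BPI, and 3, 0 and 0 for CD40. Unadjusted p-values under 0.05 are given as a description. For BP against IgG they covered 4 of 10 members in monocyte/macrophage-like cells (C3, C4b, Cfb and Serping1) against 7.98% of all genes, 5 in microglia-like cells (the same 4 and C2) against 4.61%, and 4 in tumour-like cells (C3, C4b, Cfb and Serping1) against 1.99%. For BPI they covered the same 4 members in monocyte/macrophage-like cells against 10.5% of genes, only C4b in microglia-like cells against 3.39%, and none in tumour-like cells against 1.01%. For CD40 they covered no member in any class, against 1.11%, 0.316% and 0.133% of genes. Among the members listed for BP and BPI, Serping1 had 0 UMIs in the monocyte/macrophage-like cells of both IgG libraries. In microglia-like cells it had 1 UMI in IgG and 108 in BP, all of them in BP replicate 1. Its part in the counts for these myeloid classes is therefore not read. The 3 treatments share their IgG libraries, so their results are not independent.

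Counting members whose 2 BP libraries both lay above both IgG libraries gave 4 of 10 in monocyte/macrophage-like cells (13.4% of all tested genes), 5 in microglia-like cells (14.6%) and 6 in tumour-like cells (9.79%). Of these 6, C3ar1 and C5ar1 were at the level of free RNA, which was estimated at 42.7% to 173% of them in the 4 libraries, and their lower BP library stood hardly above the higher IgG library (0.270 against 0.268 CPM and 0.144 against 0.141). The 4 in monocyte/macrophage-like cells include Serping1, with 2 UMIs in BP replicate 2. It had 0 UMIs in both IgG libraries, where 3 UMIs would have been 5.10 and 2.18 CPM, so its order cannot be read. Those with both BP libraries below both IgG libraries were 0 in monocyte/macrophage-like cells (21.3% of genes), 1 in microglia-like cells (C5ar1, 18.5%) and 0 in tumour-like cells (13.8%). The median log2 fold change of the 10 members for BP against IgG was 0.02 in monocyte/macrophage-like, 1.90 in microglia-like and 2.41 in tumour-like cells, beside 0.04, -0.04 and 0.00 for all tested genes. The medians in microglia-like and tumour-like cells rest on BP replicate 1, without which they were 0.21 over 8 members and 0.40 over 10, and the tumour-like median also includes the C1q chains and receptors, which were near the level of free RNA there.

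C3, the central component from which C3a and the opsonin C3b are cut, had a higher level in monocyte/macrophage-like than in microglia-like cells in 7 of 7 libraries. Its monocyte/macrophage-like level was 269 CPM in UT, 49.3 and 15.2 in IgG, 1337 and 115 in BP, 268 in BPI and 56.9 in CD40. The BP and BPI levels were all above both IgG libraries and CD40. The fitted log2 fold change was 4.54 ± 1.09 (SE) for BP against IgG (edgeR adjusted p = 0.264) and 3.61 ± 1.14 for BPI (edgeR adjusted p = 0.295). Without BP replicate 1 the BP value was 2.14. Inside the cluster that all libraries share (12), BP replicate 1 stood at 316 CPM of C3 rather than 1337, still above both IgG libraries. Within the set of consecutive names the levels were 49.3 in IgG replicate 1, 115 in BP replicate 2 and 268 in BPI. In the other set, of 1 library each and so without a test, CD40 at 56.9 (95% Poisson interval 48.7 to 66.1) lay above IgG replicate 2 at 15.2 (9.43 to 23.3), but close to IgG replicate 1. After thinning, C3 UMIs were found in 57.2% and 13.9% of monocyte/macrophage-like cells in BP and in 6.49% and 4.35% in IgG, with at most 1.16% in T-like cells of any library.

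Microglial C3 depended on 1 library. It stood at 776 CPM in BP replicate 1, whose T-like share was also the highest, but 0 UMIs were found in BP replicate 2, where 3 UMIs would have been 5.92 CPM. The other 5 libraries lay between 3.12 CPM in BPI and 21.7 in CD40. The fitted log2 fold change for BP was 5.73 ± 2.00 (SE, edgeR adjusted p = 0.9997). Without BP replicate 1 it rests on a library with 0 UMIs, whose limit of 5.92 CPM lies between the IgG levels of 3.86 and 9.12, so no lower level can be read. The microglia-like cells of BP replicate 1 also carried less of the summed microglia markers (5794 CPM, against 10860 to 16346 in the other libraries) and more of the summed monocyte/macrophage markers (1574 CPM, with all 14 detected, against 197 to 1045 with 8 to 13), and the part of this difference in the C3 value was not tested.

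**Figure D2:**
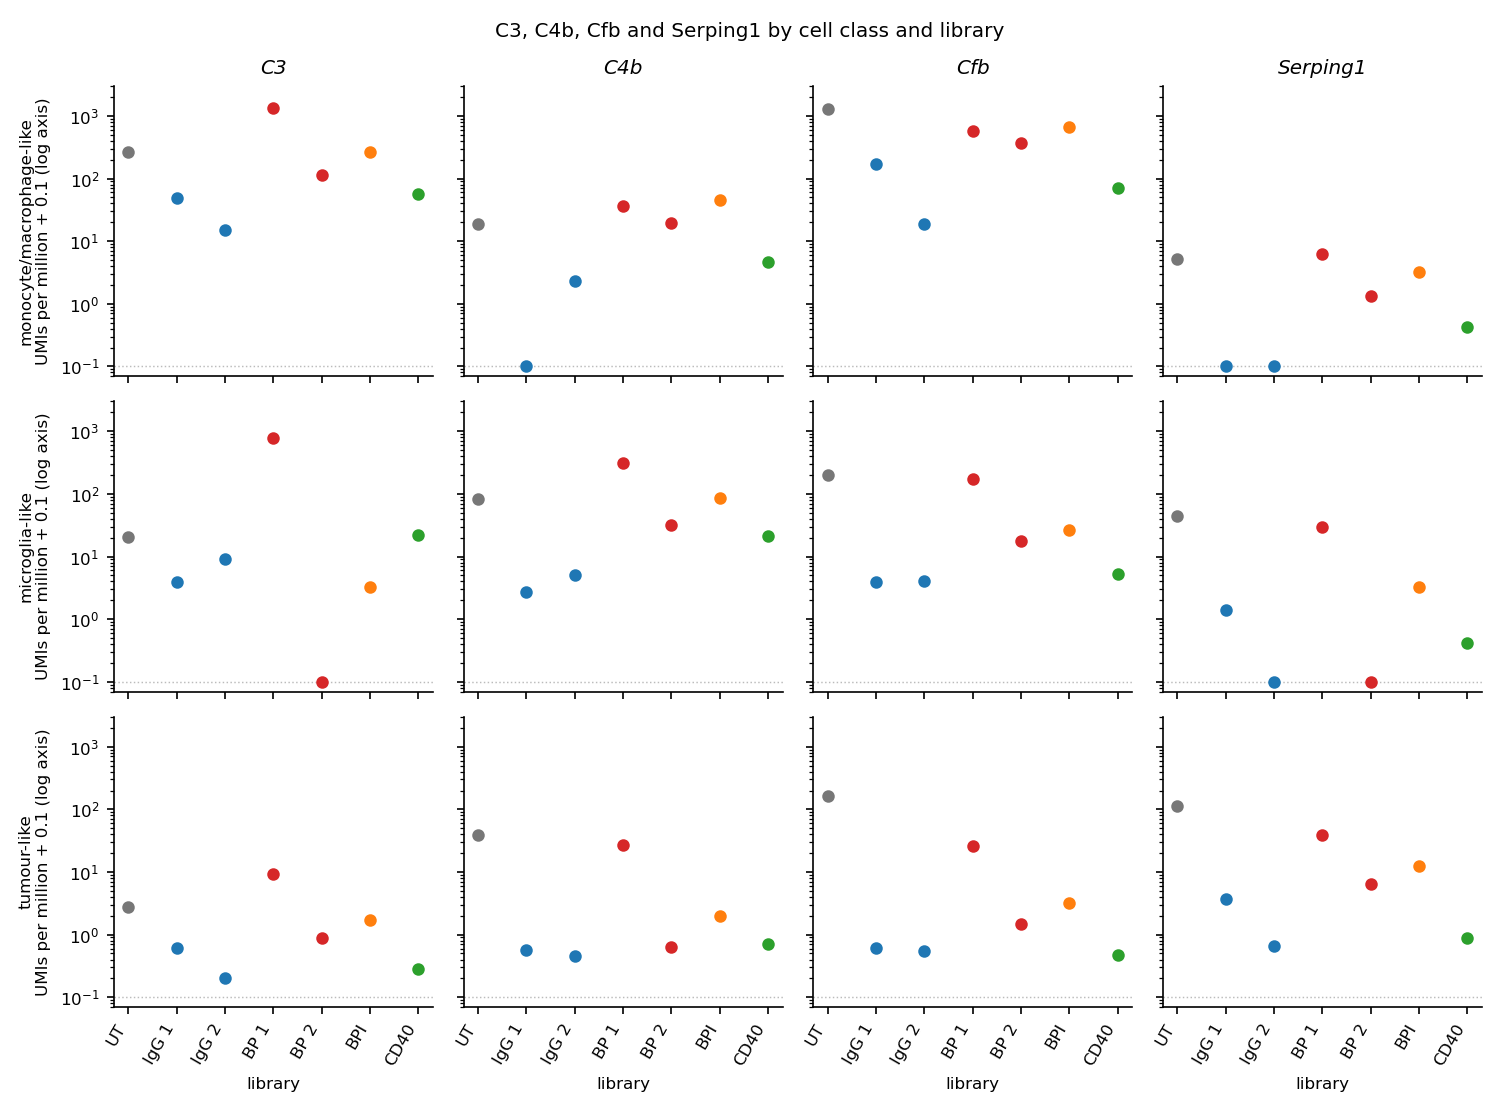
Levels of C3, C4b, Cfb and Serping1 (CPM plus a small constant, log axis) in 3 cell classes (rows) and the 7 libraries, with IgG and BP replicates numbered and coloured by group; points on the dotted line have 0 UMIs. In the top row both BP points and BPI lie above both IgG points for C3, C4b and Cfb. For Serping1 there both IgG points have 0 UMIs, where 3 UMIs would be 5.10 and 2.18 CPM, so the order is not read. BP 1 and UT are far above the rest in tumour-like cells for C4b, Cfb and Serping1.

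Cfb, the amplifying factor B, was highest in UT in monocyte/macrophage-like, microglia-like, tumour-like and endothelial-like cells. In monocyte/macrophage-like cells it stood at 1275 CPM in UT, 172 and 18.9 in IgG, 571 and 375 in BP, 655 in BPI and 71.4 in CD40. The BP and BPI libraries lay above both IgG libraries, which themselves were far apart, with CD40 between them. The log2 fold change was 2.41 ± 0.87 (SE) for BP (edgeR adjusted p = 0.507) and 3.30 ± 0.98 for BPI (edgeR adjusted p = 0.273), and with UT pooled into the control group that of BP turned to -0.27. In the shared cluster 12 the order between the BP libraries was the other way round, with 206 CPM in BP replicate 1 and 376 in BP replicate 2. In microglia-like cells Cfb stood at 204 CPM in UT, 3.86 and 3.97 in IgG, 176 and 17.8 in BP, 26.5 in BPI and 5.11 in CD40, a log2 fold change of 4.70 ± 1.05 (SE) for BP (edgeR adjusted p = 0.9997) that came to 2.17 without BP replicate 1. The part of the marker sums of that library's microglia-like cells, given above, in its Cfb level was not tested. The BP replicate 2 and IgG replicate 1 values rest on 9 and 3 UMIs.

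Tumour-like cells had low Cfb in most libraries but not in all. It stood at 164 CPM in UT, 0.521 and 0.452 in IgG, 26.1 and 1.40 in BP, 3.15 in BPI and 0.365 in CD40. UT and BP replicate 1 were far above the rest, and the log2 fold change for BP was 4.68 ± 1.40 (SE, edgeR adjusted p = 0.99996), which came to 1.63 without BP replicate 1 and turned to -2.12 with UT pooled into the control group. The free RNA estimated from empty droplets came to 4.65% of tumour-like Cfb in UT and 13.5% in BP replicate 1. The summed monocyte/macrophage markers in tumour-like cells ran along with it, at 133 CPM in UT and 148 in BP replicate 1 against 6.13 to 84.6 elsewhere, and their part in the Cfb level was not tested. Tumour-like C3 stayed between 0.100 and 9.31 CPM, highest in BP replicate 1, where estimated free RNA came to 79.5% of it, and its log2 fold change for BP was 3.90 ± 1.48 (SE, edgeR adjusted p = 0.99996), or 1.43 without that library.

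C4b, whose protein gives the C4 fragment of the classical C3-cleaving enzyme, had the smallest adjusted p of the members. In monocyte/macrophage-like cells IgG held 0 and 3 UMIs, the second being 2.18 CPM. BP stood at 36.3 and 19.5 CPM, BPI at 44.8, CD40 at 4.63 and UT at 18.5. All BP and BPI values were above all IgG and CD40 values. Pooled over libraries, BP had 22.8 times the IgG level with a 95% counting interval of 7.78 to 111, and BPI 29.4 times with an interval of 9.85 to 144, intervals that leave out the spread between libraries. Of the 673 pooled BP UMIs, 641 came from BP replicate 1. The edgeR adjusted p was 0.233 for BP and 0.0543 for BPI, with fitted log2 fold changes of 4.33 ± 0.73 and 5.42 ± 0.76 (SE) that depend on the prior count at such low IgG counts. In microglia-like cells C4b stood at 84.3 CPM in UT, 2.57 and 5.02 in IgG, 308 and 31.6 in BP, 87.4 in BPI and 20.9 in CD40. Every other library lay above both IgG libraries, and the log2 fold changes were 5.31 ± 1.11 for BP and 4.43 ± 1.21 for BPI (SE, edgeR adjusted p = 0.9997 and 0.9998), the first being 2.81 without BP replicate 1. In the microglia cluster that every library shares (19) the levels were 308 and 111 CPM in BP against 2.01 and 7.52 in IgG, BP replicate 2 resting on 13 UMIs in 27 cells. The part of the marker sums of the microglia-like cells of BP replicate 1, given above, in its C4b level was not tested.

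The tumour-like level of C4b was 38.5 CPM in UT and 26.5 in BP replicate 1 and 0.360 to 1.85 in the other 5 libraries, among them BP replicate 2 at 0.539. The log2 fold change for BP was 4.88 ± 1.75 (SE, edgeR adjusted p = 0.99996) and rests on BP replicate 1, without which it was 0.49, and with UT pooled into the control group it was -0.083. Glial cells carried C4b as well. In oligodendrocyte-like cells, the myelin-forming glia, C4b stood at 142 CPM in IgG replicate 2 (62 UMIs in 36 cells, 95% Poisson interval 109 to 182) and at 241 in CD40 (185 UMIs in 54 cells, interval 207 to 278), the only libraries with 20 such cells. Astrocyte-like cells of the same libraries stood at 45.8 and 35.6 CPM, from 5 and 8 UMIs.

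C2, the protease that joins C4 in that enzyme, was low in tumour-like and monocyte/macrophage-like cells. It ran from 1.85 to 4.40 CPM in tumour-like and from 1.82 to 9.72 in monocyte/macrophage-like cells, where the groups overlapped. In microglia-like cells it stood at 57.3 CPM in UT, 7.71 and 3.57 in IgG, 70.8 and 3.95 in BP, 12.5 in BPI and 9.90 in CD40. UT and BP replicate 1 were the high libraries, and the log2 fold change for BP of 3.16 ± 1.09 (SE, edgeR adjusted p = 0.9997) rests on BP replicate 1, since BP replicate 2 with 2 UMIs lay between the IgG libraries. Whether the marker sums of that library's microglia-like cells, given above, have a part in its C2 level was not tested. The 12 mural-like cells of UT held 241 CPM of C2 (48 UMIs) and the 11 of BP replicate 1 held 143 (25 UMIs), against 7.07 in IgG replicate 2 and 3.60 in CD40, from 3 UMIs each.

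Serping1 encodes the C1 inhibitor, which blocks the proteases of the classical and lectin pathways, and it was the member least tied to myeloid cells. In monocyte/macrophage-like cells IgG held 0 UMIs in both libraries, an upper limit of 5.10 and 2.18 CPM at 3 counts, and the other libraries ran from 0.331 CPM in CD40 to 6.17 in BP replicate 1. Since the treated levels were at or near that limit, and estimated free RNA came to 38.8% to 79.0% of them, the fitted fold change, which depends on the prior count, is not read. In microglia-like cells IgG held 1 and 0 UMIs and BP 108 and 0, so that all BP counts came from BP replicate 1, which stood at 29.1 CPM. Tumour-like cells stood at 111 CPM in UT, 3.54 and 0.569 in IgG, 39.2 and 6.33 in BP, 12.5 in BPI and 0.770 in CD40. Both BP libraries and BPI lay above both IgG libraries, with a log2 fold change of 3.32 ± 1.25 (SE) for BP (edgeR adjusted p = 0.99996) that came to 1.69 without BP replicate 1 and turned to -0.86 with UT pooled into the control group, and estimated free RNA was at most 6.82% of these values. Within the set of consecutive names the order was 3.54 in IgG replicate 1, 6.33 in BP replicate 2 and 12.5 in BPI.

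In the stroma Serping1 was higher still. Mural-like cells, the pericytes and smooth muscle of vessels, carried 167 CPM in IgG replicate 2 (43 cells) and 244 in CD40 (155 cells), and the few such cells of UT (12 cells, 1160 CPM) and BP replicate 1 (11 cells, 2057 CPM) carried more. The 20 fibroblast-like cells of CD40 carried 801 CPM (164 UMIs, 95% Poisson interval 683 to 933).

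Endothelial-like cells carried Cfb at levels that differed widely between libraries. Only UT, IgG replicate 2, BP replicate 1, BPI and CD40 had 20 or more such cells, at most 1 library a group, and no test was made. Cfb there stood at 298 CPM in UT (239 UMIs, 95% Poisson interval 261 to 338), 8.09 in IgG replicate 2 (4.42 to 13.6), 75.4 in BP replicate 1 (51.9 to 106), 165 in BPI (110 to 239) and 26.2 in CD40 (20.5 to 33.1). The 13 such cells of IgG replicate 1 held 11 Cfb UMIs, or 49.7 CPM (24.8 to 88.9), which overlaps BP replicate 1, and the 6 of BP replicate 2 held 0, so the groups did not separate. Serping1 stood at 103 CPM in UT, 89.2 in BP replicate 1 and 4.80 in CD40, with 1 UMI in IgG replicate 2 and 0 in BPI, and C4b at 86.9 in BP replicate 1 and 1.11 to 23.6 in the other 4. C3 gave 13 UMIs over all 404 endothelial-like cells.

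**Figure D3:**
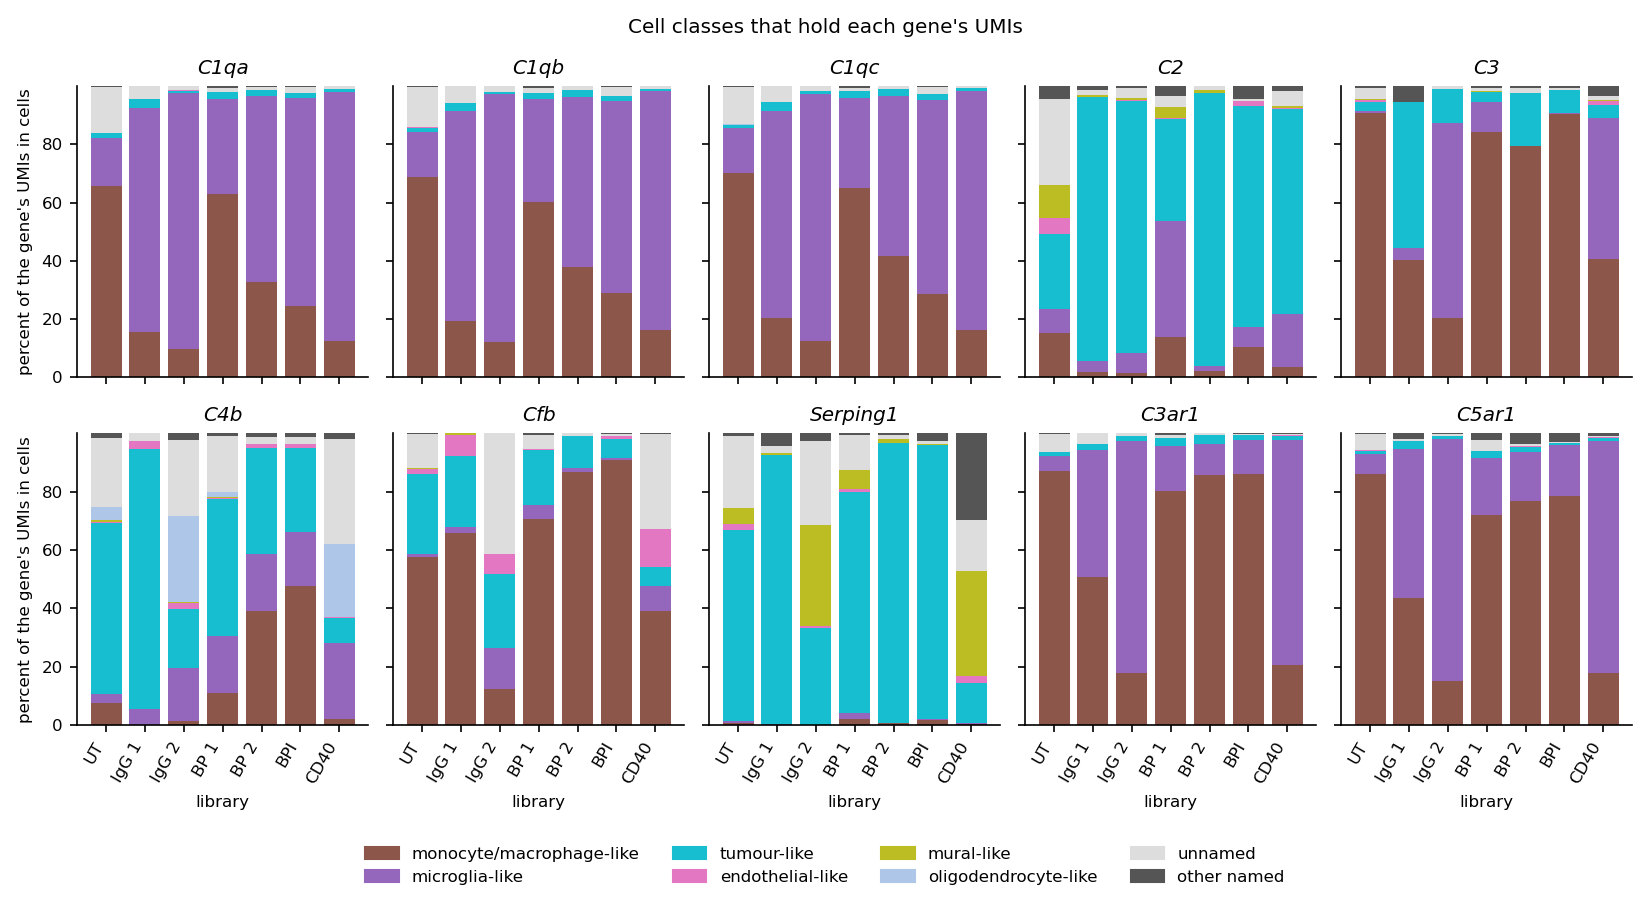
Percent of each member's UMIs in kept cells (bars, 0 to 100) that each cell class holds, by library, with IgG and BP replicates numbered; colours are classes. C1q divides between microglia-like and monocyte/macrophage-like cells, and the tumour-like part of Serping1 runs from 13.8% to 96.2% and that of C2 from 25.8% to 93.9%. The macrophage part of C3, Cfb and the receptors is smaller in IgG 1, IgG 2 and CD40 than in BP and BPI.

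Adding up all cells shows which class supplied each transcript, a number that also depends on how many cells of a class a library held. Microglia-like cells held a median of 71.3% of C1qa UMIs over the 7 libraries, from 16.3% in UT to 88.0% in IgG replicate 2, and monocyte/macrophage-like cells a median of 24.5%. In UT and BP replicate 1 monocyte/macrophage-like cells held more C1qa than microglia-like cells (21662 against 5357 UMIs and 50935 against 26200). Monocyte/macrophage-like cells held a median of 79.4% of C3 (20.4% to 90.7%) and 66.0% of Cfb (12.3% to 90.9%). Another class held more C3 than they did in 3 libraries, namely tumour-like cells in IgG replicate 1 (36 against 29 of 72 UMIs) and microglia-like cells in IgG replicate 2 (67.0% against 20.4%) and CD40 (48.3% against 40.8%). For Cfb in IgG replicate 2, unnamed cells held 41.5%, tumour-like cells 25.5% and microglia-like cells 14.2%, against 12.3% in monocyte/macrophage-like cells. Tumour-like cells, at low levels per cell but in large number, held a median of 76.0% of Serping1 (13.8% to 96.2%), 75.7% of C2 (25.8% to 93.9%) and 36.6% of C4b (8.33% to 89.2%). The low ends for Serping1 and C4b were in CD40, where mural-like cells held 36.0% of Serping1. Tumour-like cells held the most C4b only in UT, IgG replicate 1 and BP replicate 1. Elsewhere the leading class was oligodendrocyte-like in IgG replicate 2 (29.4%), monocyte/macrophage-like in BP replicate 2 (39.0%) and BPI (47.7%), and unnamed in CD40 (36.2%). For C2, unnamed cells led in UT (29.7%) and microglia-like cells in BP replicate 1 (39.8%). Naming matters here, since the unnamed clusters 8 and 15, with astrocyte genes, count as tumour-like in the wider tumour class. Cluster 15 held 257 of 269 unnamed C4b UMIs in CD40 and 50 of 55 in IgG replicate 2. It also held 81 of 88 unnamed Cfb UMIs in IgG replicate 2, and cluster 8 held 76 of 124 unnamed C2 UMIs in UT. The leading class for these genes in these libraries therefore depends on that choice. Endothelial-like cells held at most 5.26% of C2 (22 UMIs in UT), 2.70% of C4b, 2.30% of Serping1 and 12.8% of Cfb, the last in CD40.

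Both anaphylatoxin receptors were myeloid in every library and varied much less than C3, Cfb or C4b. C3ar1, the receptor of C3a, stood at 309 CPM in UT, 367 and 270 in IgG, 358 and 272 in BP, 197 in BPI and 216 in CD40 in monocyte/macrophage-like cells. In microglia-like cells it stood at 206 in UT, 239 and 219 in IgG, 332 and 111 in BP, 134 in BPI and 260 in CD40. The groups overlapped in both classes, and the log2 fold change for BP was 0.07 ± 0.42 and -0.00 ± 0.54 (SE, edgeR adjusted p = 0.989 and 0.9997). Monocyte/macrophage-like cells had the higher C3ar1 level in 6 of 7 libraries.

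C5ar1, the receptor of C5a and a marker of inflammatory myeloid cells, stood at 245 CPM in UT, 257 and 166 in IgG, 93.9 and 187 in BP, 221 in BPI and 149 in CD40 in monocyte/macrophage-like cells. In microglia-like cells it stood at 221 in UT, 227 and 165 in IgG, 121 and 130 in BP, 250 in BPI and 213 in CD40. Both BP libraries lay below both IgG libraries in microglia-like cells, by a log2 fold change of -0.62 ± 0.33 (SE, edgeR adjusted p = 0.9997), but in the shared cluster 19 they overlapped, at 121 and 308 CPM in BP (36 UMIs in the second) and 308 and 203 in IgG. In monocyte/macrophage-like cells the groups also overlapped, at -0.44 ± 0.52 (SE, edgeR adjusted p = 0.927). The 2 myeloid classes had no constant order, microglia-like cells being higher in 3 of 7 libraries. Neutrophil-like cells, a rare class, had the highest level, with 643 CPM in BP replicate 1 (34 UMIs in 26 cells, 95% Poisson interval 445 to 898), while all 67 neutrophil-like cells together held 0 UMIs of C3ar1. Tumour-like cells were at or below 2.09 CPM for C3ar1 and 0.611 for C5ar1, and endothelial-like cells gave 9 and 10 UMIs over 404 cells.

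**Figure D4:**
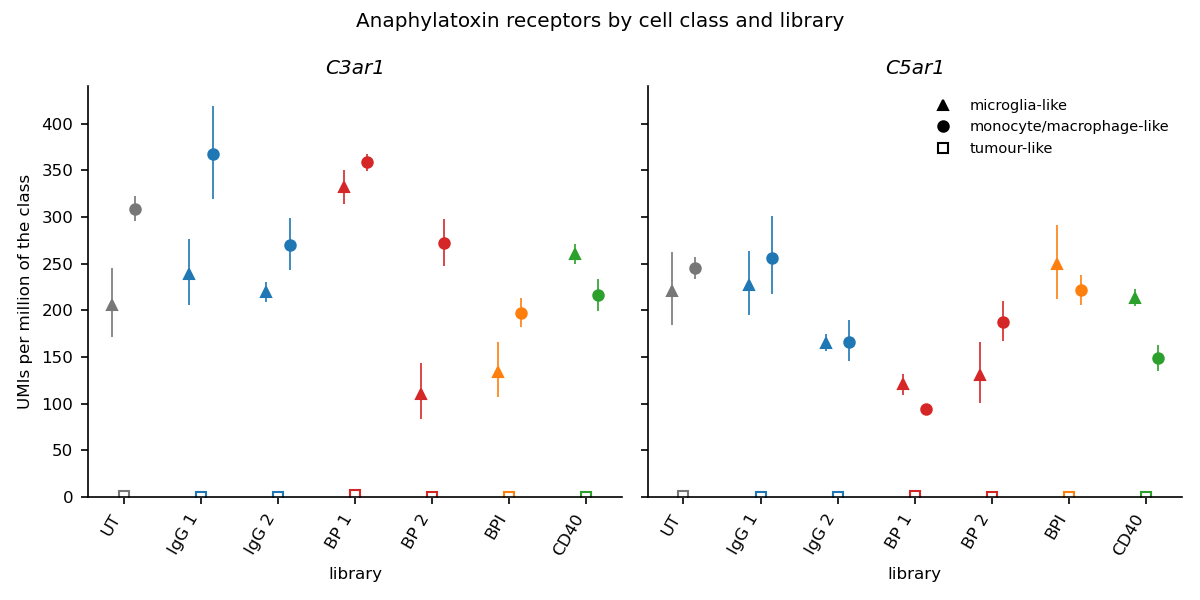
Levels of C3ar1 and C5ar1 (CPM) in the 7 libraries, with IgG and BP replicates numbered and coloured by group; triangles are microglia-like, circles monocyte/macrophage-like and open squares tumour-like cells, and bars are exact Poisson intervals. The circles and triangles lie between 93.9 and 367, and the squares at or below 2.09.

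For each C1q chain both BP libraries lay above both IgG libraries in microglia-like cells, with log2 fold changes of 0.30 ± 0.68 for C1qa, 0.33 ± 0.58 for C1qb and 0.64 ± 0.58 for C1qc (SE, edgeR adjusted p = 0.9997 for all). These are smaller than their standard errors or close to them, and UT, the untreated library, was above all others, so that with UT pooled into the control group they were -0.024, -0.12 and -0.094. In monocyte/macrophage-like cells C1qa differed by -0.28 ± 0.65 for BP and -1.74 ± 0.87 for BPI (SE, edgeR adjusted p = 0.975 and 0.552).

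**Figure D5:**
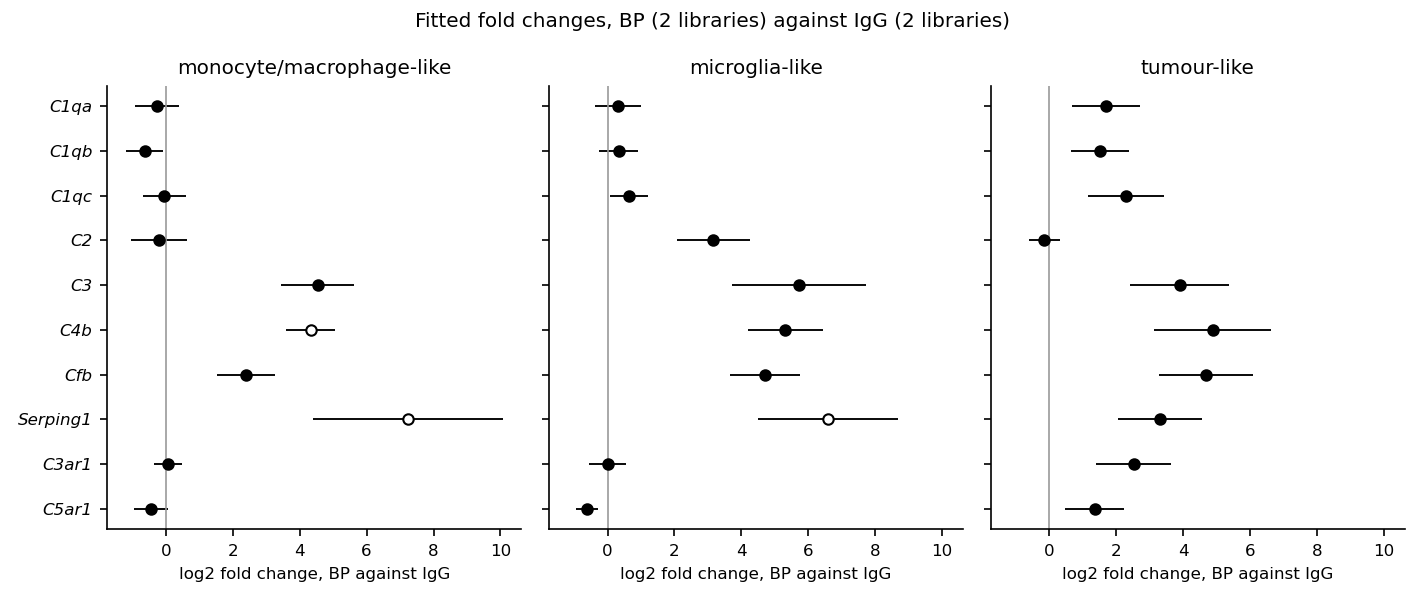
Fitted log2 fold changes of the 10 members for BP against IgG in 3 cell classes, with bars of 1 standard error; open points have 3 or fewer UMIs in the 2 IgG libraries together, and their size depends on the prior count, and those of Serping1 are not read. C3, C4b and Cfb lie to the right of 0 in each panel, and the C1q chains and receptors lie near 0 in the 2 myeloid classes.

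The number of members called depended on the processing and on single libraries. Without BP replicate 2, which leaves only the library with clusters of its own in BP and takes the spread from the other groups, edgeR called C3 and C4b in monocyte/macrophage-like cells and C2, C3, C4b, Cfb and Serping1 in microglia-like cells for BP, beside 542 and 574 of all genes. Without IgG replicate 1 it called Cfb in monocyte/macrophage-like cells, beside 92 of all genes. DESeq2 called C4b in monocyte/macrophage-like cells and C4b and Cfb in microglia-like and tumour-like cells for BP, beside 107, 42 and 65 of all genes. With the replicate pairing crossed, a fit added after seeing the data, edgeR called C3, C4b and Cfb in monocyte/macrophage-like cells for BP. That stood beside 535 of all genes, and the uncrossed block called no member. In the shared cluster 19 edgeR called C2, C3, C4b, Cfb and Serping1 in microglia-like cells for BP, beside 205 of all genes. There the 27 cells of BP replicate 2 held 0 UMIs of C3, 0 of Serping1 and 1 of C2. The calls of C2, C3 and Serping1 in that cluster therefore rest on BP replicate 1. For BPI, C4b in monocyte/macrophage-like cells was called by DESeq2, without the filter on low counts, without IgG replicate 1, without BP replicate 2 and in the shared cluster, beside 184, 587, 166, 532 and 31 of all genes. It was not called without IgG replicate 2 or BP replicate 1, with at least 2000 UMIs a cell, with more doublets removed, with free RNA subtracted, with complement genes in the clustering or with UT pooled. All these fits rest on the single BPI library and on IgG libraries with 0 and 3 C4b UMIs in that class. The repeated calls are therefore not independent and are not read as support.

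Other measures moved with the same libraries. T-like cells made up 5.14% of UT, 0.656% and 0.761% of IgG, 13.4% and 3.99% of BP, 8.98% of BPI and 1.66% of CD40. Within monocyte/macrophage-like cells the summed T markers ran from 5.08 to 5.10 CPM in IgG, with 1 and 3 of 8 detected, from 7.30 to 28.5 in BP, with 5 and 8 detected, and to 20.8 in BPI and 37.1 in UT, with all 8 detected. In this class 3 UMIs were 5.10 and 2.18 CPM in IgG but 0.170 and 1.82 in BP. The numbers of markers detected depend on that depth and are not compared. Whether the T markers have a part in the levels of C3, C4b and Cfb was not tested. The single BPI, CD40 and UT libraries cannot be told apart from their group.

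Among genes other than the members, those most like each member over 53 sums of a class in a library (13 classes, Pearson r of log2 CPM, 13621 genes, a description across sums that share libraries) differed between members. For C1qa they were Aif1 (r = 0.951) and Trem2 (0.924), for C1qb Aif1 and Tmem119 (0.926), for C1qc Aif1 and P2ry6 (0.913), and for C3ar1 Aif1 (0.948) and Abcc3 (0.942). C5ar1 was most like Nlrp3 and Clec4a2 (0.951 each), and C3 most like Clec4a1 (0.854) and Ccl6 (0.831). Cfb was most like the chemokine gene Cxcl9 and the antiviral gene Oas1g (0.876 each). The nearest genes were less close for C4b (Lamp1 and Lap3, 0.718 each), Serping1 (C1s1, 0.707, and Prrx2, 0.705) and C2 (Itm2c, 0.683, and Pros1, 0.671). Among the members, C1qa and C1qb had r = 0.975, C1qb and C1qc 0.968 and C3ar1 and C5ar1 0.875.

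Of 55 complement genes listed, 45 beside the members, 30 could be tested in monocyte/macrophage-like, 27 in microglia-like and 42 in tumour-like cells, and 0 were called in either direction in any comparison. At an unadjusted p under 0.05, 7 were higher and 2 lower for BP in monocyte/macrophage-like cells, 5 higher and 2 lower in microglia-like cells and 5 higher and 0 lower in tumour-like cells, members included, where 7.98%, 4.61% and 1.99% of all tested genes had such a p. Serping1 was among the higher genes in each class, on the low IgG counts given above in the myeloid classes. The median log2 fold changes of the list were -0.18, 0.15 and 0.67. By median CPM over the libraries with 20 cells of a class (5 for endothelial-like, 3 for B-like and 7 for the other classes named), the properdin gene Cfp, which steadies the alternative-pathway enzyme, was highest in monocyte/macrophage-like cells (120), as were Itgb2 (283) and Itgax (79.8), chains of the receptors of cleaved C3. The receptor chain Itgam (459) and the other C5a receptor C5ar2 (23.7) were highest in microglia-like cells. Endothelial-like cells led for Cd93 (494) and Cr1l (86.0), B-like cells for Cd55 (87.9) and Cr2 (61.8), and tumour-like cells for C1qbp (264) and Cd46 (10.0).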

How the data were processed

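The deposited files are unnormalized UMI counts per gene and cell barcode, which the authors made on the mm10 genome with Cell Ranger 7.0.1 per the submitters' processing notes, whereas the matrix headers name version 4. Kept cells had at least 1000 UMIs, at least 500 genes and no more than 15% of UMIs from mitochondria, and 3207 doublets were removed by Scrublet score in scanpy 1.11.5. Leiden clusters, made without complement genes, were named "-like" from 19 marker lists. Free RNA was estimated per library from barcodes of 10 to 100 UMIs, which is an upper estimate. For each class the counts of a library were added up and compared with IgG in edgeR 4.0.16 (R 4.3.3; quasi-likelihood test, TMM scaling, low counts filtered, 6 libraries in the fit without UT, Benjamini-Hochberg adjustment over all genes, threshold 0.05). The standard error of a log2 fold change is its size over the square root of F. The single BPI and CD40 libraries are assumed to vary like the replicated groups. Classes under 20 cells in a library were not used for levels unless their cell number is given. The procedure was tested on simulated counts.

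The members and lists were chosen with earlier results of these data known. Named were all 10 members, other complement genes by the class of their highest level, and for each member the 2 genes outside the members with the highest Pearson r of log2(CPM + 1). Alternatives were DESeq2 1.42.0, no filter on low counts, each replicate left out, cells with at least 2000 UMIs, more doublets removed, free RNA subtracted, complement genes in the clustering, UT pooled with IgG and a replicate block. The crossed block, the shared clusters and a wider tumour class were added after seeing the data.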

Additional observations from a re-analysis of the deposited data

Results flagged for a closer look

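The BP minus IgG difference of C5ar1 was 0.211 CPM in tumour-like cells and -71.1 CPM in microglia-like cells, with no overlap of the libraries in either class, and the difference between the classes was not tested. Estimated free RNA came to 138% and 123% of the tumour-like level in IgG and to 99.7% and 42.7% in BP, where replicate 2 rests on 8 UMIs, so no direction in tumour cells can be read from it.

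The UT library takes part in no test other than the alternative that pools it with IgG. Of its levels, 11 had a counting interval above that of each of the other 6 libraries. In microglia-like cells these were C1qa at 9036 CPM, C1qb at 5490 and C1qc at 5096. In monocyte/macrophage-like cells they were C1qc at 2105 and Cfb at 1275. In tumour-like cells they were C1qa at 22.2, C1qb at 14.6, C4b at 38.5, Cfb at 164 and Serping1 at 111, estimated free RNA being 97.9% of the C1qa and 96.4% of the C1qb there, and in endothelial-like cells Cfb at 298. UT has its own barcode list and 59.0% unnamed cells, and with 1 library these cannot be told apart from the lack of treatment.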

How the results depend on the processing

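Of 114 counts of called members under an alternative, 93 stayed at 0. DESeq2 called 1 member in monocyte/macrophage-like cells for BP and for BPI, 2 and 1 in microglia-like cells, and 2 in tumour-like cells for BP. Without the filter on low counts the numbers were 3 and 3, then 5 and 2, with 1 for CD40 in microglia-like cells. Leaving out 1 library gave 0 to 2 in the monocyte/macrophage-like class for BP and for BPI, 0 to 5 and 0 to 2 in the microglia-like class. The shared cluster gave 1 for BPI in the monocyte/macrophage-like class, and 5 for BP and 1 for BPI in microglia-like cells, beside 31, 205 and 71 of all genes. Of those 5, C2, C3 and Serping1 rest on BP replicate 1. The replicate numbers did not pair the libraries (correlations of same-numbered libraries of -0.240, 0.030 and -0.693 in monocyte/macrophage-like, microglia-like and tumour-like cells), and with the replicate block 0 members were called in each class, beside 4, 6 and 0 of all genes. With the pairing crossed, 3 members (C3, C4b and Cfb) and 535 genes were called in monocyte/macrophage-like cells and 0 in the other classes. Over all genes, against 0 in the reported fit, monocyte/macrophage-like cells gave 422, 587 and 43 calls for BP, BPI and CD40 without the filter and 542 and 532 for BP and BPI without BP replicate 2, while microglia-like cells gave 309, 128 and 32, and 574 and 67. Without IgG replicate 1, monocyte/macrophage-like cells gave 92 and 166, and without BP replicate 1 microglia-like cells gave 11 and 67. Removing more doublets gave 17 for BPI in the monocyte/macrophage-like class. The C1q share difference was 4.05 points without thinning and -18.4 to 15.6 when a library was left out. Of 1110 member fold changes recomputed, 84 changed sign, 40 of them with UT pooled, and of 325 recomputed for the fold changes given in the text, 23 did. For BP with UT pooled the latter were, in log2, -0.27 for Cfb and -0.026 for C3ar1 in monocyte/macrophage-like cells, -0.024, -0.12, -0.094 and 0.0095 for C1qa, C1qb, C1qc and C3ar1 in microglia-like cells, and -0.083, -2.12 and -0.86 for C4b, Cfb and Serping1 in tumour-like cells. Leaving out a library gave -1.08 to 0.59 for C1qa, -0.15 to 0.36 for C3ar1 and -1.19 to 0.028 for C5ar1 in the monocyte/macrophage-like class, and -7.80 to 6.68 for C3 and -1.03 to 0.58 for C3ar1 in microglia-like cells. The -7.80 comes from a single BP library with 0 UMIs, is set by the prior count and shows no decrease. C3ar1 was also -0.030 with complement genes in the clustering and -0.67 in the shared monocyte/macrophage-like cluster, and among microglia-like cells 0.016 with DESeq2, 0.022 without the filter, 0.0055 with more doublets removed and 0.081 with complement genes in the clustering. The cause of the other changes was not tested. The IgG libraries hold 77 and 69 monocyte/macrophage-like cells, and 3 UMIs there stand for 5.10 and 2.18 CPM.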
